A study of Mus musculus with 6 samples.

Results

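Transcripts of the Toll-like receptor system were followed in small-intestinal epithelial cells: the receptors Tlr1, Tlr2, Tlr3, Tlr4, Tlr5 and Tlr9, the lipopolysaccharide-handling proteins Lbp, Cd14 and Ly96, and the adaptor Myd88. These 10 genes were taken by name from the 18193 genes that the platform annotation pairs with probe sets of a single gene, and 15 of the 45101 probe sets on the array read them. The list was drawn up with the results of this same comparison known. Its differences, adjusted p-values and calls therefore describe where each gene stood in the fit over all genes and are no independent evidence. The study compared 3 control and 3 N-cadherin replacement samples from C57BL/6 mice, 1 Affymetrix expression array per sample, at an age of 14 days in both groups. The replacement genotype is labelled Ecadflox/Ncad;Vil-Cre: a floxed E-cadherin allele over an N-cadherin (Ncad) allele, with a Cre recombinase driven by the villin promoter of gut epithelium. The controls were littermates that kept E-cadherin; they are labelled only as control, so their alleles and Cre status are not known here. The cells came off with EDTA and vortexing, with no sort described, and the labels do not say whether a sample was 1 animal or a pool, so p-values measure only the spread between these samples.

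Toll-like receptors recognise conserved microbial molecules through leucine-rich repeats and signal through a cytoplasmic TIR domain. Lbp hands lipopolysaccharide to Cd14, which passes it to the complex of Tlr4 and Ly96 (also called MD2); the pair of Tlr1 and Tlr2 binds triacylated lipopeptides, Tlr5 binds flagellin, Tlr3 binds double-stranded RNA and Tlr9 binds unmethylated CpG DNA. Most of these receptors signal through Myd88 to NF-kB, Tlr3 through the adaptor Ticam1, and Tlr4 through both. In gut epithelium, which faces dense bacteria, several of these receptors are held at low levels or away from the lumen.

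Intensities are linear, with a trimmed mean of 100 on every array. Values under 16 were set to that floor, and log2 was taken. Probe sets at 16 or more on 3 or more of the 6 arrays were kept. The share of probe sets at 16 or more was 55.1% to 61.8% per array. Control 2 and control 3 were nearly alike (SD of the log2 ratio 0.115 over 5109 bright probe sets, against 0.347 to 0.564 for other pairs within a group) and were averaged as 1 replicate, which left 2 control and 3 replacement replicates. Cdh1, the gene exchanged, stood at 2757, 2335 and 2204 in the controls and at 1073, 1175 and 1357 in the replacement arrays. Neither of the Cdh2 probe sets exceeded 13.5 on any array; whether they read the introduced copy is not known here. By Xist, control 1, replacement 2 and replacement 3 were female-like and the other arrays male-like, with both kinds in each group. Xist stood at 2305 in control 1 and at 440 and 578 in replacement 2 and replacement 3. Replacement 1, the only male-like replacement array, had Y-linked levels under those of the male-like controls (Eif2s3y 114 against 410 and 418, Uty 105 against 210 and 223).

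Of the 10 genes, Cd14, Tlr1, Tlr3 and Tlr4 rose in the replacement epithelium and none fell at a limma adjusted p under 0.05. Over all 12994 genes tested, 9.12% were called (4.46% higher and 4.66% lower), and nothing about the list is read from that comparison because the list was chosen on it. Control and replacement arrays were fully separated for 7 genes, 5 higher and 2 lower, and for 36.6% of all genes tested, 17.8% higher and 18.8% lower. The median difference of the 10 genes was 0.32 on the log2 scale and their median absolute difference 0.88, beside -0.02 and 0.33 over all genes tested. All 10 genes and 12 of the 15 probe sets passed the filter on dim values. The receptors thus did not move as a block: the Myd88, Lbp and Tlr9 arrays of the groups overlapped, and Ly96 and Tlr5 were lower in every replacement array.

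**Figure D1:**
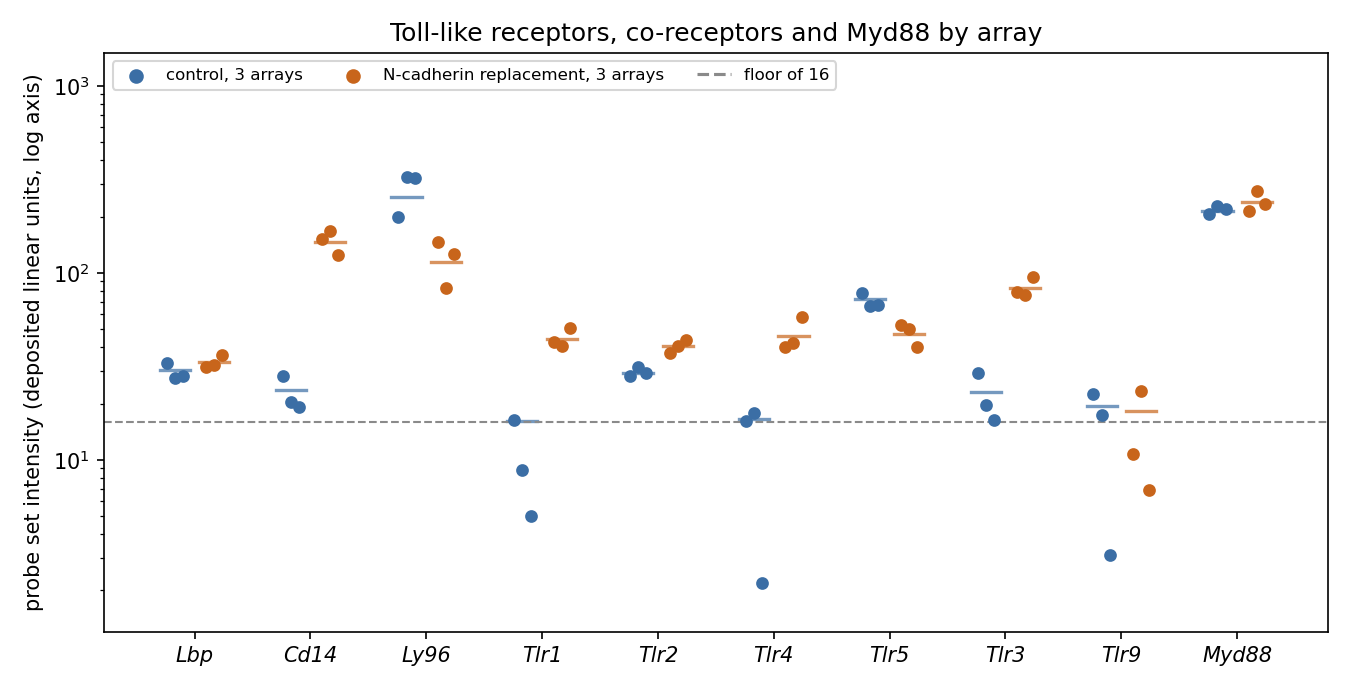
Intensity of the probe set that stands for each gene (log axis, deposited linear units) in the 3 control and 3 N-cadherin replacement arrays; bars are geometric means of the floored values with control 2 and control 3 counted once, and the dashed line is the floor of 16. Cd14, Tlr1, Tlr2, Tlr3 and Tlr4 lie higher in all 3 replacement arrays, Ly96 and Tlr5 lower, and Lbp, Tlr9 and Myd88 overlap.

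Cd14, the lipid-anchored co-receptor that binds lipopolysaccharide and delivers it to Tlr4, had the largest difference of the list. Its probe set (Entrez gene 12475) read 28.2, 20.3 and 19.1 in the control arrays and 151, 167 and 125 in the replacement arrays. Every control was thus near the floor and every replacement array well clear of it, with no overlap. Cd14 rose 6.23-fold (log2 difference 2.64, SE 0.262, n = 2 and 3 replicates, limma adjusted p = 0.000588). Within the female-like arrays, where control 1 stands alone for its group, the log2 difference was 2.36. Within the male-like arrays, where replacement 1 stands alone for its group, it was 2.94. In bulk cells, a larger share of cells that carry a transcript and more of it per cell cannot be told apart, for Cd14 as for every gene below.

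Ly96, the secreted protein that sits in the ectodomain of Tlr4 and holds the lipid part of lipopolysaccharide, went the other way. Its probe set (Entrez gene 17087) read 198, 327 and 323 in the controls and 146, 82.5 and 126 in the replacement arrays. All replacement arrays lay under all controls, with control 1 the nearest. The log2 difference of -1.14 (SE 0.322, 95% interval -1.87 to -0.42) did not pass the threshold (limma adjusted p = 0.0569). It did pass in 7 of 22 alternative settings, among them the fit with 6 separate arrays (log2 difference -1.26, adjusted p = 0.0152) and the fit with sex as a term (-1.04, adjusted p = 0.0349). Cd14 and Ly96, which act in the same ligand transfer chain, thus had differences of opposite sign.

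Lbp, the serum-type carrier that extracts lipopolysaccharide from bacterial membranes, read 33.1, 27.5 and 28.2 in the controls and 31.4, 32 and 36.5 in the replacement arrays on its brighter probe set (Entrez gene 16803). These groups overlapped, and the log2 difference was 0.13 (SE 0.233, 95% interval -0.39 to 0.65, limma adjusted p = 0.793). The interval leaves room for changes of moderate size in either direction. A second Lbp probe set never reached the floor and peaked at 9.2.

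Among the receptors of the cell surface, Tlr1 and Tlr4 rose, Tlr2 did not pass, and Tlr5 was lower without passing. Tlr1, the partner of Tlr2 for triacylated lipopeptides, read 16.3, 8.8 and 5.0 in the controls and 42.8, 40.4 and 50.6 in the replacement arrays (Entrez gene 21897). In 2 of 3 control arrays it lay under the floor, so the rise of at least 2.75-fold is a lower bound. The log2 difference was at least 1.46 (SE 0.232, limma adjusted p = 0.00530). With control 1 on the floor and the other controls set to it, the SE and adjusted p do not measure the spread of the controls. Tlr1 reached the filter only with the replacement arrays, which favoured this direction. With the floor lowered to 1 the log2 difference of Tlr1 became 2.09.

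Tlr4, the signalling receptor for lipopolysaccharide, was read by 4 probe sets, of which 2 passed the filter. The brighter (Entrez gene 21898) gave 16.2, 17.8 and 2.2 in the controls and 40.3, 42.0 and 57.9 in the replacement arrays. Control 3 lay far under the floor and the other controls on it, while all replacement arrays were clear of it. Tlr4 rose at least 2.79-fold (lower bound of the log2 difference 1.48, SE 0.252, limma adjusted p = 0.00717). With controls on the floor or set to it, the SE and adjusted p hardly measure the spread of the controls. The second passed the filter only through the replacement arrays: it read 0.9, 5.6 and 0.8 in the controls and 17.4, 29.0 and 29.9 under replacement. Its log2 difference, at least 0.63, was not called when each kept probe set was tested alone, where 5.92% of 22603 were called and 3.22% higher (limma adjusted p = 0.265). The remaining Tlr4 probe sets, at most 7.5 and 10.5, were never above the floor. The direction of the second probe set was fixed by the filter, so the rise of Tlr4 rests on the brighter probe set alone. The brighter one, with 2 of 3 controls at 16 or more, also reached the filter only with the replacement arrays.

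Tlr2, which pairs with Tlr1 or Tlr6, read 27.9, 31.4 and 29.2 in the controls and 37.4, 40.7 and 43.7 in the replacement arrays (Entrez gene 24088). The groups did not overlap, yet the step was small: the log2 difference was 0.48 (SE 0.228, 95% interval -0.03 to 0.99, limma adjusted p = 0.234). Tlr2 passed in 1 of 21 alternatives, the fit with array weights (adjusted p = 0.0455).

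Tlr5, the flagellin receptor, read 78.3, 66.4 and 67.5 in the controls and 52.9, 50.2 and 40.0 in the replacement arrays (Entrez gene 53791). Every replacement array lay under every control. The log2 difference of -0.61 (SE 0.244, 95% interval -1.16 to -0.07) did not pass over all genes (limma adjusted p = 0.155), and with array weights it did (-0.55, adjusted p = 0.0261). Tlr5 and Ly96 were the members whose arrays separated downwards.

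The endosomal receptors differed from each other. Tlr3, the sensor of double-stranded RNA, had a pair of probe sets that both passed. The brighter (Entrez gene 142980; its design type can be shared with other transcripts) read 29.3, 19.7 and 16.3 in the controls and 78.8, 76.3 and 94.9 in the replacement arrays. The gap between the groups was wide and each group was compact. Tlr3 rose 3.62-fold (log2 difference 1.86, SE 0.276, limma adjusted p = 0.00350). The other probe set read 20.9, 6.5 and 15.3 against 45.1, 56.3 and 66.0, a rise of at least 3.01-fold with each probe set tested alone (lower bound of the log2 difference 1.59, SE 0.268, limma adjusted p = 0.0146). That other probe set reached the filter only with the replacement arrays, since 1 of 3 controls was at 16 or more. Its direction was thus favoured by the filter, and the rise of Tlr3 rests on the brighter probe set, which may be shared.

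Tlr9, the receptor for CpG DNA, was barely measurable. It read 22.5, 17.3 and 3.1 in the controls and 10.8, 23.3 and 6.9 in the replacement arrays (Entrez gene 81897), and passed the filter with 3 arrays, the fewest allowed. Its groups overlapped, and its log2 difference of -0.09 (SE 0.273, limma adjusted p = 0.879) changed sign in 4 of 21 alternatives. No direction can be given for Tlr9.

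Myd88, the adaptor shared by all of these receptors except Tlr3, was clearly above the floor on every array. It read 206, 228 and 219 in the controls and 213, 276 and 234 in the replacement arrays (Entrez gene 17874). The groups overlapped, with a log2 difference of 0.16 (SE 0.236, 95% interval -0.37 to 0.69, limma adjusted p = 0.738). The upper bound of that interval lies below the lower bounds of Cd14 (2.05) and Tlr3 (1.24), a description of the fitted intervals and no test of the differences between genes. The lower bounds of Tlr1 (0.94) and Tlr4 (0.91) are higher too. They come from controls on the floor or set to it, so nothing is read from them. Myd88 was the only member whose sign differed between the sexes. It had 0.30 in the female-like arrays, with control 1 as the only control, and -0.07 in the male-like arrays, with replacement 1 alone. Of 10 members 9 kept their sign.

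**Figure D2:**
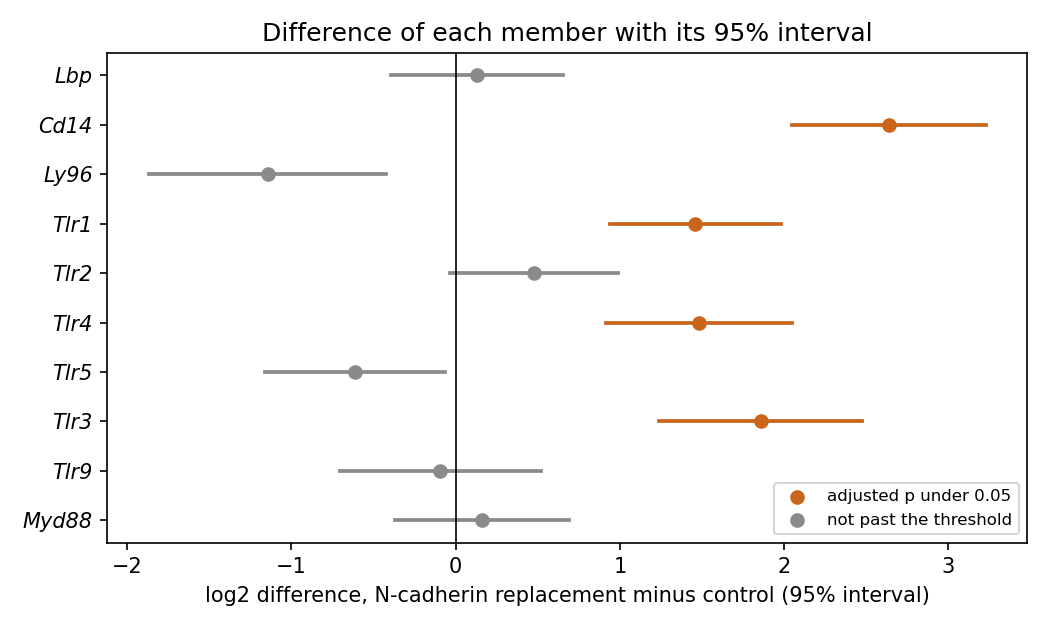
Log2 difference (N-cadherin replacement minus control) of each gene with the 95% interval of the moderated fit, from 2 control and 3 replacement replicates; orange marks an adjusted p under 0.05 over 12994 genes. The intervals of Cd14, Tlr1, Tlr3 and Tlr4 lie above 0.91, that of Myd88 runs from -0.37 to 0.69, and those of Ly96 and Tlr5 lie below 0 although their adjusted p-values of 0.0569 and 0.155 did not pass. For Tlr1 and Tlr4 the controls were on the floor or set to it.

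The 4 calls share a limit that the few control replicates set. Without control 1 the adjusted p was 0.0644 for Cd14, 0.112 for Tlr1, 0.0667 for Tlr3 and 0.154 for Tlr4, and without control 2 and control 3 together it was 0.0816, 0.135, 0.128 and 0.160; a lone control replicate is then assumed to vary like the replacement samples. The log2 differences themselves stayed between 2.38 and 2.90 for Cd14, 1.45 and 1.47 for Tlr1, 1.501 and 2.21 for Tlr3 and 1.45 and 1.51 for Tlr4 in those fits, and all 4 calls held when any single replacement array was left out. They were also lost when dim probe sets were left in (adjusted p 0.0641, 0.0564, 0.112 and 0.0993, in the order Cd14, Tlr1, Tlr3, Tlr4) and without moderation of the variances (0.111, 0.102, 0.156 and 0.143).

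Of the members that passed, Tlr1 and Tlr3 have an entry in RefSeq's promoter table (build GRCm38.p6), as do 6 of the 10 genes in all. The 250 bases before the start site of these genes are shown with those of Tlr2, the partner of Tlr1 that did not pass, so that called members and one that missed the threshold, though higher in every replacement array, can be read side by side. Capitals mark matches to the NF-kB motif on either strand; the positions are chr5:64933559-64933808 for Tlr1 (minus strand, the outer of its listed start sites), chr8:45410381-45410630 for Tlr3 (minus strand) and chr3:83841609-83841858 for Tlr2 (minus strand).
Tlr1: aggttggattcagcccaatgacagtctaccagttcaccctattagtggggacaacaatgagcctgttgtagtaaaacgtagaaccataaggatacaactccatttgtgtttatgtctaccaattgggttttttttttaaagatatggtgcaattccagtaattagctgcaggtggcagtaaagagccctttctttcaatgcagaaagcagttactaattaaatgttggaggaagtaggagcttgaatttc
Tlr3: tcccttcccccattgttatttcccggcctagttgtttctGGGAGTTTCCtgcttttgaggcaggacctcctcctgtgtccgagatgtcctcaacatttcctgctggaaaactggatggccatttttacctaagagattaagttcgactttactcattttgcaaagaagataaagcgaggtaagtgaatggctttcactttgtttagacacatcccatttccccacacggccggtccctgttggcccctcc
Tlr2: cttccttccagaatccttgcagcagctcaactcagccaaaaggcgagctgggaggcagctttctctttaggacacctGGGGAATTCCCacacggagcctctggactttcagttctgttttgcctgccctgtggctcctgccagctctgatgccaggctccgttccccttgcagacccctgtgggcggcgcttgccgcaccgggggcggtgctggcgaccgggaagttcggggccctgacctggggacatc
Tlr3 held 1 match, which begins 211 bases before the start site, and Tlr2 held 2 matches that overlap, beginning 173 and 172 bases before it. Tlr1 held none in this window or in that of its inner start site, which says only that these letters are not there. Tlr5, Tlr9 and Myd88, the other members with an entry, held none either, so 2 of 6 members had a match. Of 32851 promoters of the same length 7.25% held a match. The log2 differences of the genes shown were 0.48 for Tlr2, which did not pass, 1.86 for Tlr3 and at least 1.46 for Tlr1. The part of the matches in these differences was not tested. TGANTCA, a pattern wider than the AP-1 core because it allows any middle base, was searched on either strand. It was found in the promoter of Tlr9, 58 bases before its start site, and in 6.75% of all promoters.

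The rest of the pathway was described by 7 textbook lists with 110 genes, of which 93 were named on the array and 75 passed the filter. Of these 75 genes 3 rose and 2 fell, beside 4.46% and 4.66% of all genes tested. The median difference was 0.04 and the median absolute difference 0.27 on the log2 scale, against -0.02 and 0.33 over all genes tested. Among the other Toll-like receptors and their relatives, Tlr6, Tlr8, Tlr12 and Cd180 were measured and none passed (log2 differences -0.11 to 0.37); Tlr7 and Tlr13 stayed under the floor on all arrays. None of 8 receptor chaperones passed, among them Unc93b1 (-0.02, SE 0.249), which brings Tlr3 and Tlr9 to endosomes, and Hsp90b1 (-0.04, SE 0.242), which folds most of the receptors.

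**Figure D3:**
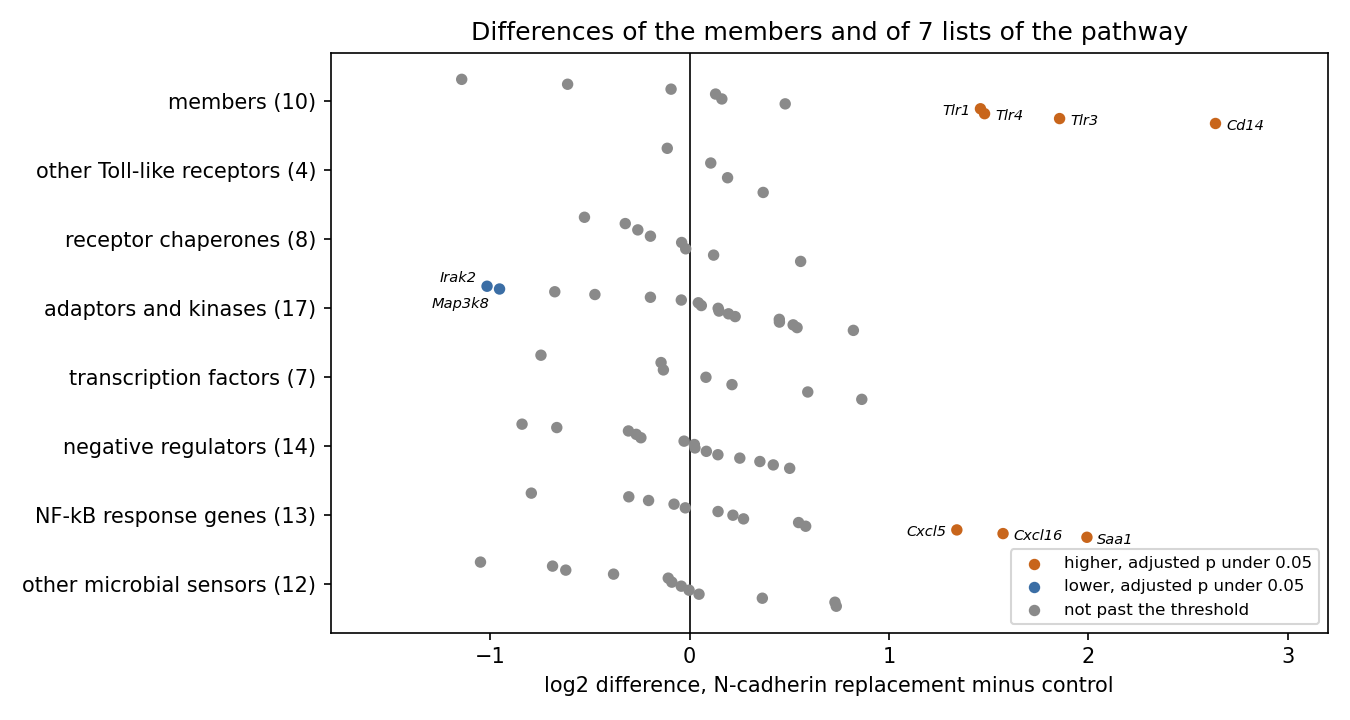
Log2 difference (N-cadherin replacement minus control) of the 10 members and of the measured genes of 7 lists of the pathway, 1 point per gene with the number of genes in brackets; colour marks an adjusted p under 0.05. Outside the members, 3 response genes lie high and 2 kinase genes low past the threshold, and the other 70 genes did not pass.

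Among 17 adaptors and kinases 2 fell and none rose, beside 4.66% lower and 4.46% higher of all genes tested. Irak2, a kinase of the Myd88 complex, read 530, 679 and 622 in the controls and 290, 296 and 285 in the replacement arrays. Its groups were well apart, and it was 2.02-fold lower (log2 difference -1.02, SE 0.230, limma adjusted p = 0.0255). Map3k8, the kinase that passes Toll-like receptor signals to ERK, read 31.1, 36 and 26.5 against 1.0, 13.4 and 14.2. All replacement arrays lay under the floor, so the fall of at least 1.94-fold is a lower bound. The log2 difference was -0.95 or beyond (SE 0.221, limma adjusted p = 0.0279). Map3k8 reached the filter only through the controls, so its direction was fixed by the filter. Its replacement values were all set to the floor, so the SE and adjusted p do not measure the spread of that group. Tirap, which bridges Tlr4 and Tlr2 to Myd88 and is named after its values were seen, had 0.82 (SE 0.242, adjusted p = 0.0663).

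None of 7 transcription factors passed. Rela, the main activating NF-kB subunit, had 0.08 (SE 0.227), and Relb, a subunit of the slower NF-kB branch named after its values were seen, had 0.86 (SE 0.235, limma adjusted p = 0.0510). None of 14 negative regulators passed either, including Tnfaip3 (0.08, SE 0.259) and Nfkbia (-0.03, SE 0.251), NF-kB targets that feed back on the pathway.

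Of 25 listed NF-kB response genes 13 passed the filter, and 3 rose while none fell, beside 4.46% and 4.66% of all genes tested. Cxcl5, one of the 3, was among the 13 only through the replacement arrays. Saa1, another of the 3, had 2 controls at 16 or more and also reached the filter only with the replacement arrays. The chemokine Cxcl16 read 129, 79.7 and 80.4 in the controls and 391, 250 and 282 in the replacement arrays, 2.97-fold higher (log2 difference 1.57, SE 0.299, limma adjusted p = 0.0120). Saa1, an acute phase protein, read 2.9, 34.6 and 26.7 against 68.1, 63.6 and 156; 1 of 3 controls was under the floor, and it rose at least 3.98-fold (lower bound of the log2 difference 1.99, SE 0.422, adjusted p = 0.0193). Cxcl5, a neutrophil-attracting chemokine, read at most 1.5 in the controls and 41.8, 54.3 and 29.3 under replacement (at least 2.53-fold higher, SE 0.290, adjusted p = 0.0209). Its control values were all set to the floor, so the SE and adjusted p do not measure the spread of that group. The other 12 listed response genes did not reach the filter. Ccl20, one of them, read 7.6, 56.4 and 57.5 in the controls and 8.4, 4.4 and 10.4 in the replacement arrays. Cxcl2, Cxcl10 and Saa2 reached 16 on 2 arrays each and Lcn2 on 1, all of them replacement arrays. Tnf (at most 13.2) and Il6 (at most 8.6) stayed under the floor on all arrays, and Cxcl1, measured on all of them, had -0.02 (SE 0.253, adjusted p = 0.970).

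These 5 calls rested on few arrays. Without control 1 the adjusted p was 0.123 for Irak2, 0.162 for Map3k8, 0.119 for Cxcl16, 0.336 for Saa1 and 0.251 for Cxcl5, and without control 2 and control 3 it was 0.194, 0.170, 0.218, 0.199 and 0.248. Leaving out replacement 2 ended the calls of Irak2 (0.0770), Map3k8 (0.0861) and Cxcl5 (0.0738), replacement 3 those of Irak2 (0.0992), Map3k8 (0.0992), Cxcl16 (0.0668) and Saa1 (0.0705), and control 2 that of Map3k8 (0.0523). Scaling to array medians ended those of Irak2 (0.0902) and Map3k8 (0.0932), a floor of 1 those of Map3k8 (0.236) and Saa1 (0.0915), and a pseudocount in place of the floor that of Map3k8 (0.0521). With dim probe sets left in, or without moderation, the calls of Irak2, Cxcl16, Saa1 and Cxcl5 were lost.

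Among 12 measured genes of other microbial sensing routes none passed. Nod1, a cytosolic sensor of peptidoglycan, had -0.09 (SE 0.260), and Alpi, the intestinal alkaline phosphatase that detoxifies lipopolysaccharide, -0.11 (SE 0.236).

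Cd14, Tlr1 and Tlr4 are also transcripts of macrophages, so markers of that cell type were set beside them. Marker genes are named after their values were seen. Of 13 macrophage and monocyte markers 5 passed the filter. Mrc1, the mannose receptor, rose (27.7 to 126, log2 difference 2.19, SE 0.357, limma adjusted p = 0.00602) and Csf1r, the receptor for the macrophage growth factor Csf1, fell (2449.9 to 899.9, -1.44, SE 0.286, adjusted p = 0.0143). The summed intensity of the 13 markers was 2608.5 to 3015 in the controls and 1076 to 1666 in the replacement arrays. Without Mrc1 and Csf1r it was 139 to 558 and 154 to 320, ranges that overlap. Csf1r, Adgre1, Cd68, Cx3cr1 and Mrc1 were at 16 or more on all 6 arrays. C1qa, C1qb, C1qc, Mpeg1, Ms4a7 and Fcgr1 reached 16 on control 1 and replacement 1 alone, Itgam on replacement 3 alone, and Cd163 on no array. Mrc1 was thus higher in every replacement array, as Cd14, Tlr1, Tlr3 and Tlr4 were, at 29.7, 26.8 and 24.9 against 74.8, 151 and 177. Without control 1 the calls of Mrc1 (adjusted p = 0.188) and Csf1r (0.220) were lost, as they were without control 2 and control 3 (0.215 and 0.223); that of Csf1r was also lost without replacement 2 (0.0635) or replacement 3 (0.0839). The part of macrophages in the member differences was not tested.

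**Figure D4:**
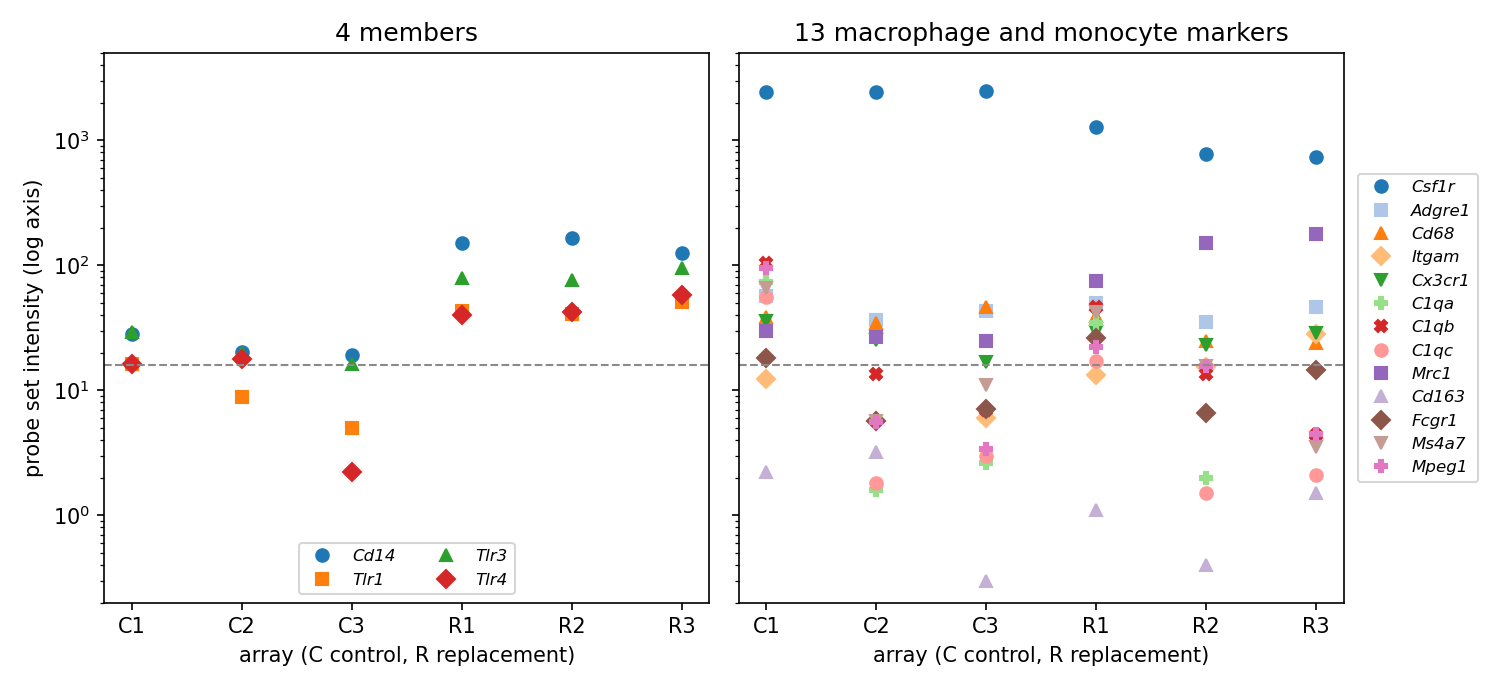
Intensity (log axis) of the 4 members that rose and of all 13 macrophage and monocyte markers on each array, C for control and R for N-cadherin replacement, with the floor of 16 dashed. The members and Mrc1 are high on all 3 replacement arrays, Csf1r is lower there, Adgre1, Cd68 and Cx3cr1 are above the floor on every array, and C1qa, C1qb, C1qc, Mpeg1, Ms4a7 and Fcgr1 are above it on control 1 and replacement 1 only.

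The neutrophil markers S100a8 and S100a9 lay below 16 throughout (at most 15.1 and 3.8), as did 5 of 6 T cell markers. The summed level of 8 pan-leukocyte markers was 302 to 365 in the controls and 164 to 272 in the replacement arrays, and none of the 6 measured was called. That separation rested on Lcp1: without it the sums were 292.7, 95.5 and 80.9 against 229, 114 and 128, which overlap. Fibroblast and smooth muscle markers summed to 1414 on control 1, to 330 and 348 on the other controls and to 501 to 594 on the replacement arrays. The 9 epithelial markers were all measured; their sum was 21807.5 to 22972 in the controls and 25066.5 to 31180.5 in the replacement arrays, and 1 of the 9, Krt20, a keratin of mature villus cells, was called higher (2.55-fold, limma adjusted p = 0.0274). Without Krt20 the sums were 21042, 20882 and 22026 against 27383, 21899 and 26102.5, which overlap. The Krt20 call was lost without control 1 (0.0768), replacement 1 (0.0546), replacement 2 (0.0781) or replacement 3 (0.111), and without control 2 and control 3 (0.224). Of 5 measured Paneth cell markers 1 was called higher (Mmp7) and 1 lower (Pla2g2a). Left out singly, every array but control 3 ended the Mmp7 call (without control 1, adjusted p = 0.118), and control 1 (0.410), control 3, replacement 2 and replacement 3 each ended that of Pla2g2a. The part of these cell types in the member differences was not tested.

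The genes whose pattern over the 6 arrays lay nearest to that of Cd14 were Car2, Car9, Lmna, Tm4sf4 and Krt23, by Euclidean distance between centred log2 values (0.277, 0.356, 0.359, 0.387 and 0.410). They are carbonic anhydrases (Car2, Car9), a nuclear lamina protein (Lmna), a tetraspanin-like membrane protein (Tm4sf4) and a keratin (Krt23). Car2, the nearest, read 55.7, 33.1 and 35.0 in the controls and 237, 291 and 231 in the replacement arrays. Their log2 differences ran from 2.38 (Car9) to 2.91 (Krt23) around the 2.64 of Cd14, and in each of them, as in Cd14, control 1 was the highest control. Such likeness follows from choosing the genes by this distance and is no independent evidence.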

How the data were processed

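The submitters' processing notes name GCRMA and limma and give neither versions nor roles. The deposited values are linear intensities, with a trimmed mean of 100 on each array as they stand; for the probe summary method, nothing was given in the sources used here. Values under 16 were set to 16 and log2 was taken, which compresses differences of dim transcripts, so "at least" marks a fold with arrays of the lower group under the floor. A probe set was kept where 3 of 6 arrays reached 16 (26664 kept, 59.1%). Of all probe sets, 34945 had 1 gene symbol in the platform annotation and 932 had several; 34741 of the former matched the GRCm38.p6 gene table by Entrez identifier. The probe set with the highest mean stood for its gene (12994 genes).

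Control 2 and control 3 were averaged: the SD of their log2 ratio (0.115) lay within the range that 18 hybridization controls gave over all pairs (0.0812 to 0.134), though over the value for that pair (0.0824). Differences are replacement minus control, from limma 3.58.1 in R 4.3.3 (lmFit, eBayes) with Benjamini-Hochberg adjustment over all genes, threshold 0.05; the steps were tested on simulated data. Arrays have no read depth, and their number limits the precision.

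The members and the gene lists were chosen with earlier results of these data known. Named are all members with each probe set, called pathway genes up to 4 per direction and list, and the 5 genes nearest to the member with the largest difference; every other pathway gene and every marker gene was named after its values were seen. Of the listed pathway genes 17 were not analysed here. Figures were drawn with matplotlib 3.10.9. Sex was read from Xist and Y-linked probe sets.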

Additional observations from a re-analysis of the deposited data

How the results depend on the processing

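The counts of calls, the 10 members, the 5 called pathway genes and the 5 called marker genes were recomputed in up to 22 other settings; the sex term and the marker genes were added after seeing the data. Marker sums, array separations and the nearest genes were not rerun in those settings. The log2 differences of Cd14, Ly96, Tlr1, Tlr2, Tlr3, Tlr4, Tlr5, Lbp and Myd88 kept their sign in all of them. Cd14 ran from 2.04 to 2.90, Tlr3 from 1.34 to 2.21, Tlr1 from 1.15 to 2.09 and Tlr4 from 1.05 to 2.20. The 4 calls were lost with no filter (Cd14 2.64, Tlr1 1.46, Tlr3 1.86, Tlr4 1.48, with 0 members called) and without moderation (the same differences, 0 called). A filter at 64 left 2 called higher, since Tlr1 and Tlr4 no longer entered the fit. Those 2, Cd14 and Tlr3, passed that filter only through the replacement arrays, so their direction in that setting was fixed by the filter. When arrays were left out one at a time, Cd14 ranged from 2.54 to 2.90, Tlr1 from 1.36 to 1.53, Tlr3 from 1.76 to 2.21, Tlr4 from 1.32 to 1.58 and Ly96 from -1.502 to -0.91, with 0 to 4 members called higher and 0 to 1 lower. Without control 2 and control 3 together Cd14 was 2.38, Tlr1 1.45, Tlr3 1.501 and Tlr4 1.51, with 0 members called. Ly96 passed with 6 separate arrays (-1.26), array weights (-1.54), a filter at 64 (-1.14), a pseudocount of 16 in place of the floor (-1.04), the sex term (-1.04), the replicate block (-1.26) and without replacement 1 (-1.32, adjusted p = 0.0434). Each of these gave 1 member lower, except 2 with array weights, where Tlr5 (-0.55) and Tlr2 (0.45) passed too. Tlr9 turned positive with array weights (0.13), quantile normalization (0.035) and scaling to array medians (0.036), and ranged from -0.27 to 0.12 when arrays were left out.

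Over all genes 580 were called higher and 605 lower. They became 1118 and 1234 with 6 separate arrays, 994 and 1108 with the replicate block, 1974 and 2207 with array weights, 70 and 92 with no filter, 12 and 20 without moderation, 403 and 348 with a floor of 1, and 446 and 387 with scaling to array medians; leaving out single arrays gave 8 to 827 and 3 to 833, and leaving out control 2 and control 3 together 3 and 1. Of the pathway genes 3 rose and 2 fell; this became 6 and 6 with 6 separate arrays, 5 and 6 with the replicate block, 11 and 13 with array weights, 0 and 1 with no filter and without moderation, 5 and 2 with the mean of a gene's probe sets or with the sex term, 1 lower with a filter at 64, 0 lower with scaling to array medians, 0 to 5 and 0 to 4 when single arrays were left out, and 0 and 0 without control 2 and control 3. The replicate numbers did not pair the samples: deviations of same-numbered arrays correlated at -0.02, -0.00082 and -0.05, so the block stands here only as an alternative. Apart from the settings that drop genes or samples, the cause of these changes was not tested. Tlr1, Tlr4, Tlr9, Map3k8, Saa1 and Cxcl5 had arrays under the floor, where the signal limits what can be measured.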
